A study of Homo sapiens with 6 samples.

Results

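ATP-binding cassette (ABC) transporter genes were followed through knockdown of BNC2, the zinc finger transcription factor basonuclin-2, in BT549 cells. They were taken as every row of the gene count table whose symbol is ABC, a subfamily letter from A to G and a number, which gave 46 of 23346 genes. BT549 is an established breast cancer line, labelled mesenchymal and wild type, grown in RPMI medium with serum. One group of 3 libraries came from cells given 20 nM BNC2 siRNA, an equal mix of 3 siRNAs against the same gene, and the other group of 3 from cells given 20 nM of the supplier's negative control siRNA (NC siRNA), with RNA taken on day 6 in both. The study's methods call the 3 libraries of a group biological replicates. No gene was deleted in either group, and a mixed pool in a single line does not tell the siRNAs of the pool apart. Nor can loss of BNC2 and other effects of the siRNAs be told apart in this design.

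ABC proteins bind and hydrolyse ATP in a conserved cassette, and most use that cycle to move a substrate across a membrane. Subfamilies A and G hold many lipid and sterol exporters, B and C hold drug, peptide, bile and conjugate exporters together with mitochondrial carriers and channel subunits, and D sits in peroxisomes and lysosomes. Members of E and F have the cassettes but no membrane-spanning part and work on the ribosome. In breast cancer cells the family is best known for drug efflux by ABCB1, ABCC1 and ABCG2.

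A read count per gene was the measured quantity, with 16093978 to 18246254 counts assigned to genes per library. Levels are given as CPM, counts scaled to a common library size after TMM scaling. A gene was tested where more than 1 CPM was reached in at least 3 of the 6 libraries, which kept 12186 genes, and was called at an adjusted p of at most 0.05 (edgeR's quasi-likelihood test, Benjamini-Hochberg adjustment over all 12186 genes). Log2 fold changes are BNC2 siRNA over NC siRNA. BNC2 itself, measured at 51.5 to 65.6 CPM in NC siRNA and 35.5 to 41.6 CPM in BNC2 siRNA, was at 64.6% of control (log2 fold change -0.63, SE 0.09, adjusted p = 8.2e-06). All 5 mesenchymal markers checked were tested and their summed level was 4208 to 4295 CPM in NC siRNA and 5032 to 5249 CPM in BNC2 siRNA. Most of this sum was VIM (means 3024 and 3418 CPM). The markers did not move alike, with log2 fold changes of 1.36 for CDH2, 0.39 for FN1, 0.34 for ZEB1 and 0.18 for VIM, all called. PRRX1 was not called (-0.04). None of the 5 epithelial, 3 endothelial or 3 hepatocyte markers passed the filter, and each of these lists summed to at most 0.560 CPM in any library. Of the epithelial markers 2 were at 0 throughout. The 4 leukocyte markers summed to 1.75 to 2.25 CPM in NC siRNA and 0.872 to 1.02 CPM in BNC2 siRNA. Of these CD14 was tested and lower (log2 fold change -1.42), and the others were under the filter. CD14 passed the filter through the NC siRNA libraries alone and so had to differ. The part of the leukocyte markers in the results was not tested. In bulk libraries fewer cells making a transcript and less transcript per cell cannot be told apart.

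Promoters are shown for 3 members with large changes in opposite directions, since each gene below is described with its own values. RefSeq entries (GRCh38.p14, 250 bases before to 50 after the annotated start) matched 35 of the 46 members. Capitals mark matches, on either strand, to any of 8 sets of letters searched: the GC box GGGCGG, the CCAAT box CCAAT, the TATA box TATAAA, the E-box CACGTG, the AP-1 site TGANTCA, the NRF2 site TGACNNNGC, a sterol element TCACNCCAC and a direct repeat of AGGTNA and NGGTCA with 4 bases between them. ABCA1 (chr9:104928106-104928405, minus strand) carries 6 matches, ABCA5 (chr17:69327084-69327383, minus strand) carries 3, and ABCG2 (chr4:88231577-88231876, minus strand) carries none in this window. A single annotated start was used per gene, and sequence around any other start, of ABCG2 or the other members, was not searched. No match overlaps another in these 3 sequences.
ABCA1: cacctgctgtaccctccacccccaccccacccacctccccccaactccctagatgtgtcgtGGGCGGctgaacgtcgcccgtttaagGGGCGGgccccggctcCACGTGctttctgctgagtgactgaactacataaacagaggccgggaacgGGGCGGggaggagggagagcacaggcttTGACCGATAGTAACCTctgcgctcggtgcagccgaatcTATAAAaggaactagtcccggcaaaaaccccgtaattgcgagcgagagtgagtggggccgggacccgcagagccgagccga
ABCA5: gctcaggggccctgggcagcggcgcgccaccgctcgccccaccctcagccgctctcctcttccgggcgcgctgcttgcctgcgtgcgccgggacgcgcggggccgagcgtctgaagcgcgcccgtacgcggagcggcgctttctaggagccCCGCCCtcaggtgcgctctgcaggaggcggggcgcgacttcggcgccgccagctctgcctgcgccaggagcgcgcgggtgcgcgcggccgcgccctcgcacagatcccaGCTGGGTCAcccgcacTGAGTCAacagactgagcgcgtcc
ABCG2: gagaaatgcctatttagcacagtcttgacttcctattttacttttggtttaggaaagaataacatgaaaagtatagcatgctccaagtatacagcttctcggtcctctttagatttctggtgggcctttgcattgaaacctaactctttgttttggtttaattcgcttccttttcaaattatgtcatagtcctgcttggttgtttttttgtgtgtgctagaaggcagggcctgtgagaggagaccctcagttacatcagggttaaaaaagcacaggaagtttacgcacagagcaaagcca

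In the ABCA1 promoter the direct repeat starts 69 bases before the start, after GC boxes 189, 163 and 97 bases and an E-box 147 bases before it, and a TATA box lies 31 bases before the start. The direct repeat is the kind of element bound by the oxysterol receptors LXR with RXR. It was found in 28 of 27305 promoters of the same length (0.103%) and in no other of the 35 members, but its letters were written with the ABCA1 element in mind, so the match is a description. ABCA5 has a GC box 99 bases before the start and matches to the NRF2 and AP-1 letters 10 and 26 bases after it. Among the 35 members the GC box occurred in 18 (44.6% of all promoters), CCAAT in 6 (35.7%), the NRF2 letters in 7 (13.6%), TATAAA in 5 (12.0%), the AP-1 letters in 2 (7.76%), CACGTG in 4 (7.43%) and the sterol element in 0 (1.15%).

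ABC transporter genes differed in both directions between BNC2 siRNA and NC siRNA. ABCA1, the exporter that loads cholesterol onto apolipoprotein A-I, rose 2.94-fold, and ABCC1, a drug and glutathione-conjugate pump, rose 1.88-fold. ABCC3, a basolateral organic anion exporter, fell to 28.3% of control, and ABCG2, the breast cancer resistance protein, went from a low level to almost no reads. ABCF1, the most highly expressed member and a translation factor, fell to 62.4% of control.

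Of the 46 members 26 were tested. Of these 11 rose (42.3%, where 36.6% of all genes tested rose), 10 fell (38.5%, where 36.2% fell), and 5 were not called. The 21 called are 80.8% of the tested members, and 72.9% of all genes tested were called, so the share of members called lies near that of genes in general. For 24 of 26 members (92.3%) the libraries of the groups did not overlap, against 74.9% of all genes tested. The median log2 fold change was 0.06 (0.00 over all genes) and the median absolute log2 fold change 0.46 (0.44 over all genes). Called changes of at least 1 on the log2 scale were seen in 6 members, of which ABCA1 rose and ABCA5, ABCA10, ABCC3, ABCG2 and ABCG4 fell, whereas 18.1% of all genes tested changed by that much. ABCA10, ABCG2 and ABCG4 passed the filter through the NC siRNA libraries alone and so had to differ. The 23 members above the minimum in both groups comprised 11 higher, 7 lower and 5 not called.

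**Figure D1:**
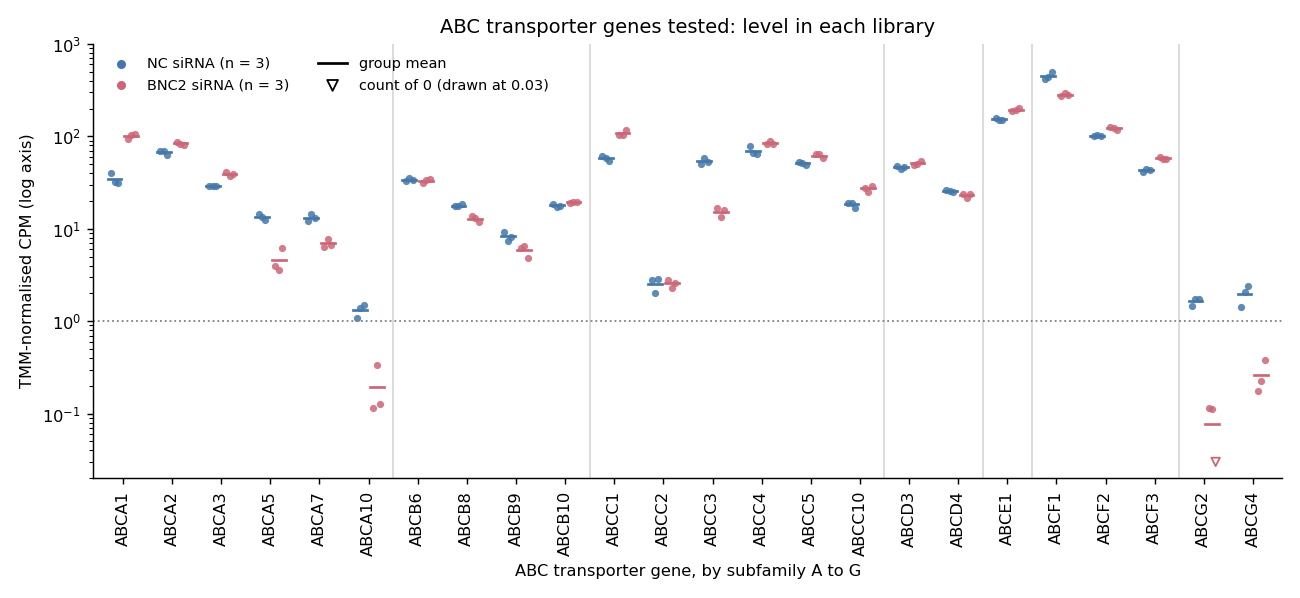
TMM-normalised CPM (log axis) of 24 of the 26 tested ABC transporter genes in each of 3 NC siRNA and 3 BNC2 siRNA libraries (points), with group means (short lines), a dotted line at the minimum of 1 CPM, and an open triangle for a count of 0. ABCF1 is highest in every library (276 to 496 CPM), and the BNC2 siRNA points of ABCA10, ABCG2 and ABCG4 lie under 1 CPM.

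**Figure D2:**
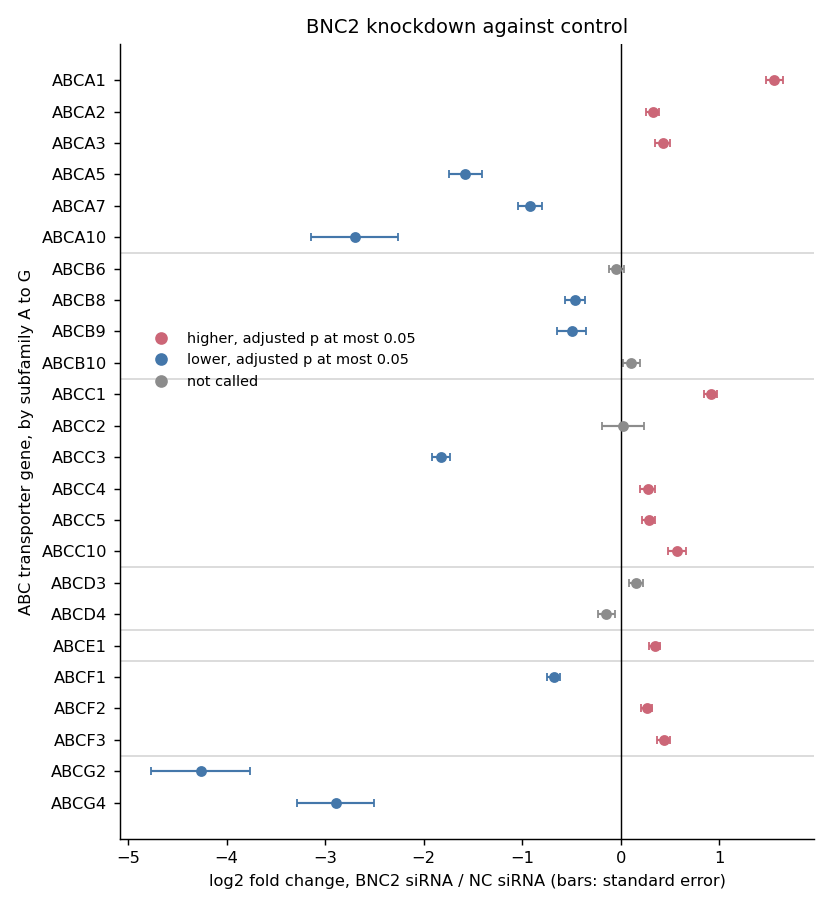
Log2 fold change of BNC2 siRNA over NC siRNA (horizontal axis) with its standard error (bars) for 24 of the 26 tested members, grouped by subfamily. ABCA1 lies furthest to the right at 1.56, and the values furthest to the left, ABCG2 (-4.26), ABCG4 (-2.89) and ABCA10 (-2.70), rest on few reads in the BNC2 siRNA libraries.

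Subfamily A had 12 genes, of which 6 were tested and all 6 were called, 3 in each direction, where 72.9% of all genes tested were called and ABCA10 had to differ to pass the filter. ABCA1 (chromosome 9, 107543287 to 107690436, minus strand; gene positions are GRCh37, the assembly of hg19) was measured at 40.05, 31.8 and 31.6 CPM after control transfection and at 93.8, 104 and 107 CPM after knockdown. Its lowest BNC2 siRNA library was thus above every NC siRNA library by a wide margin. Means were 34.5 ± 4.82 CPM in NC siRNA and 102 ± 6.92 CPM in BNC2 siRNA (here and below mean ± SD over n = 3 libraries), and the log2 fold change was 1.56 (SE 0.09, adjusted p = 1.1e-10). ABCA1 is the gene whose loss causes Tangier disease, in which HDL is almost absent.

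ABCA2, a lipid transporter of endosomes and lysosomes, had the highest level per kilobase of transcript in subfamily A. Its values were 69.1, 69.8 and 62.8 CPM in NC siRNA and 87.9, 83.3 and 81.7 CPM in BNC2 siRNA. The groups were apart, with a smaller rise than that of ABCA1 (log2 fold change 0.33, SE 0.06, adjusted p = 0.00026). ABCA3, which loads surfactant lipid into lamellar bodies in the lung, rose by a similar amount, from 29.1 ± 0.231 to 39.1 ± 1.83 CPM (log2 fold change 0.43, SE 0.07, adjusted p = 7.0e-05).

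The members of subfamily A that fell were ABCA5, ABCA7 and ABCA10. ABCA5, a protein of late endosomes and lysosomes, stood at 14.5, 13.5 and 12.5 CPM in NC siRNA and at 3.95, 3.55 and 6.18 CPM in BNC2 siRNA. Every BNC2 siRNA library was below every NC siRNA library, although the third was higher than the other two. The log2 fold change was -1.58 (SE 0.16, adjusted p = 2.2e-07). ABCA7, a phospholipid exporter and close relative of ABCA1, fell from 13.2 ± 1.2 to 6.98 ± 0.722 CPM (log2 fold change -0.92, SE 0.12, adjusted p = 4.3e-06). ABCA1 and ABCA7 thus moved in opposite directions in the same libraries.

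ABCA10 was counted 19, 25 and 25 times in the NC siRNA libraries and 2, 6 and 2 times in the BNC2 siRNA libraries. No BNC2 siRNA library came near the NC siRNA libraries, but the lower group rests on 10 reads in all. The ratio of summed counts per library size was 6.69 with NC siRNA over BNC2 siRNA (exact 95% interval 3.43 to 14.6, which covers counting error only), and the fitted log2 fold change was -2.70 (SE 0.44, adjusted p = 3.5e-05). It was -3.36 without BNC2 siRNA replicate 2, the library with 6 counts.

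ABCA5 and ABCA10 lie next to each other on the minus strand of chromosome 17, at the end of a run of related genes in the order ABCA8, ABCA9, ABCA6, ABCA10 and ABCA5 from 66863430 to 67323385. The 2 annotated genes share 536 bases, and reads that fell on exons of both would have been assigned to neither. Summed over 3 libraries, ABCA5 had 706 counts in NC siRNA and 228 in BNC2 siRNA, and ABCA10 had 69 and 10. ABCA8, ABCA9 and ABCA6 were under the filter with 5, 12 and 6 counts in NC siRNA and 1, 1 and 0 in BNC2 siRNA. All 5 genes of the run therefore had fewer reads in BNC2 siRNA, and the test bore on ABCA5 and ABCA10 alone.

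**Figure D3:**
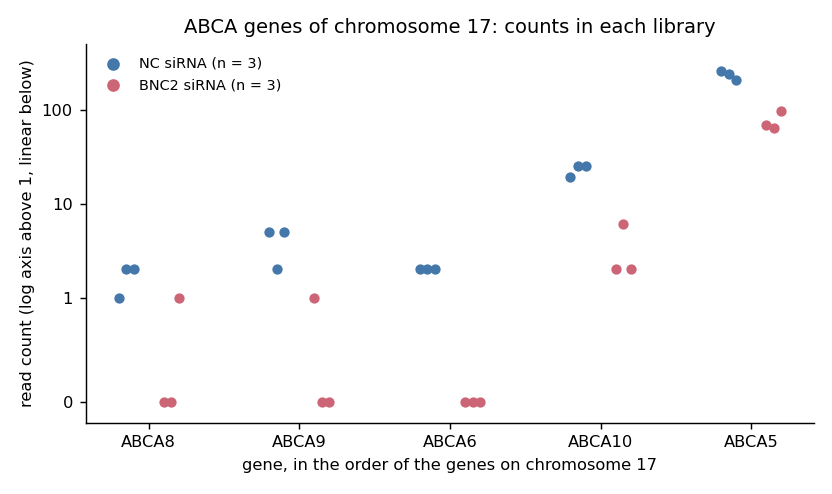
Read counts of the 5 neighbouring ABCA genes of chromosome 17 in each library (log axis above 1, linear below), in their order along the chromosome. NC siRNA libraries reach 258 counts for ABCA5 and 25 for ABCA10, against 97 and 6 in BNC2 siRNA, and the other 3 genes stay at 5 counts or fewer.

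The members of subfamily B described here work mainly inside the cell, ABCB6, ABCB8 and ABCB10 with mitochondria, haem or iron, and ABCB9 as a peptide carrier of lysosomes. ABCB6, a porphyrin transporter with the highest level per kilobase in its subfamily, was at 33.2, 35.6 and 33.6 CPM in NC siRNA and at 31.3, 33.3 and 34.7 CPM in BNC2 siRNA. These groups overlapped (log2 fold change -0.04, SE 0.08, adjusted p = 0.62). ABCB10, an inner membrane protein needed for haem synthesis in red cell precursors, was at 18.6, 17.4 and 17.7 CPM in NC siRNA and at 19.2, 19.4 and 19.3 CPM in BNC2 siRNA. Each BNC2 siRNA library was above each NC siRNA library, by an amount that the test did not call (log2 fold change 0.11, SE 0.09, adjusted p = 0.28). A missed threshold does not show that either gene was the same in both groups.

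ABCB8, another protein of the inner mitochondrial membrane, fell from 17.8 ± 0.604 to 12.9 ± 0.948 CPM (log2 fold change -0.47, SE 0.10, adjusted p = 0.00041). ABCB9 fell by a like amount (log2 fold change -0.50, SE 0.15, adjusted p = 0.0062), from 8.25 ± 0.952 to 5.83 ± 0.874 CPM. Exporters of the cell surface in this subfamily were hardly seen. ABCB1, the P-glycoprotein of multidrug resistance, had 2 counts in 1 NC siRNA library and 0 in the other 5, ABCB5 had 1 count in all, and ABCB4 and ABCB11, the phospholipid and bile salt pumps of the liver, had 0 in each library. A count of 0 allows up to 3 counts, or 0.168 to 0.191 CPM here, so these genes could not be compared at this depth.

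Subfamily C, the multidrug resistance-associated proteins and their kin, had 6 of 12 genes tested, with 4 higher, 1 lower and 1 not called (83.3% called, against 72.9% of all genes tested). The single fall was the largest change among them. ABCC3 (chromosome 17, 48712138 to 48769614, plus strand), an exporter of glucuronides and bile acids, was at 50.2, 58.5 and 53.2 CPM in NC siRNA and at 16.7, 13.3 and 15.8 CPM in BNC2 siRNA. The groups were far apart and each was tight. Its mean went from 54.0 ± 4.2 to 15.3 ± 1.75 CPM (log2 fold change -1.82, SE 0.09, adjusted p = 3.8e-11).

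ABCC1 (chromosome 16, 16042995 to 16237114, plus strand), which exports leukotriene C4, glutathione conjugates and many anticancer drugs, went the other way. It was at 61.5, 57.9 and 53.8 CPM in NC siRNA and at 104, 105 and 117 CPM in BNC2 siRNA, without overlap (log2 fold change 0.91, SE 0.07, adjusted p = 5.0e-09). ABCC10, which exports taxanes among other drugs, rose from 18.4 ± 1.36 to 27.3 ± 1.85 CPM (log2 fold change 0.57, SE 0.09, adjusted p = 2.7e-05).

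ABCC4 and ABCC5 export cyclic nucleotides, and ABCC4 also prostaglandins. ABCC4, the highest of its subfamily per kilobase in NC siRNA, was at 79.2, 66.2 and 64.1 CPM in NC siRNA and at 81.9, 88.2 and 82.8 CPM in BNC2 siRNA. The first NC siRNA library came close to the lowest BNC2 siRNA library without crossing it (log2 fold change 0.27, SE 0.08, adjusted p = 0.0045). ABCC5 rose by about as much, from 51.0 ± 1.48 to 62.0 ± 3.32 CPM (log2 fold change 0.28, SE 0.07, adjusted p = 0.0012). ABCC2, the exporter of bilirubin conjugates into bile, was low, at 2.76, 2.02 and 2.83 CPM in NC siRNA and 2.79, 2.31 and 2.61 CPM in BNC2 siRNA. These groups overlapped (log2 fold change 0.02, SE 0.21, adjusted p = 0.93).

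The other 6 genes of subfamily C were under the filter. ABCC8, the sulphonylurea receptor of the pancreatic potassium channel, and ABCC13, which GENCODE lists as a non-coding gene, had 0 counts in each library. ABCC9, the sulphonylurea receptor of muscle, had 0 counts in each NC siRNA library and 5, 0 and 1 in BNC2 siRNA, and neither KCNJ8 nor KCNJ11, the channel partners of these receptors, passed the filter. ABCC12 had at most 3 counts in a library.

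ABCC11, which sets the type of ear wax, had 8, 5 and 2 counts in NC siRNA and 1 in each BNC2 siRNA library, a ratio of 4.85 (exact 95% interval 1.37 to 26.1, counting error only). ABCC6, mutated in pseudoxanthoma elasticum, had 1 count in each NC siRNA library and 6, 3 and 6 in BNC2 siRNA, a ratio of 5.16 the other way (exact 95% interval 1.46 to 27.8, counting error only). ABCC6 shares sequence with pseudogenes of its own, and reads that mapped equally to several copies were not counted. Of these pseudogenes ABCC6P2 had 3, 1 and 1 counts in NC siRNA and 10, 16 and 9 in BNC2 siRNA.

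In subfamily D, ABCD3, the peroxisomal carrier of branched-chain and dicarboxylic acids, had the highest level per kilobase. It stood at 47.4, 44.5 and 46.5 CPM in NC siRNA and at 49.5, 50.3 and 54.3 CPM in BNC2 siRNA. The groups did not overlap, yet the difference just missed the threshold (log2 fold change 0.15, SE 0.07, adjusted p = 0.053), and it was called under some other settings, with log2 fold changes of 0.16 to 0.19. ABCD4, needed to release vitamin B12 from lysosomes, was at 26.2, 25.5 and 24.9 CPM in NC siRNA and at 24.1, 21.7 and 23.6 CPM in BNC2 siRNA. Its groups were also apart but not called (log2 fold change -0.15, SE 0.08, adjusted p = 0.12). With scaling by total counts alone it was called lower (-0.22, adjusted p = 0.027). ABCD2, another peroxisomal carrier of fatty acids, had 0 counts in each library.

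Subfamilies E and F were tested in full, with ABCE1, ABCF2 and ABCF3 higher and ABCF1 lower. ABCF1 (chromosome 6, 30539170 to 30564956, plus strand), which binds initiation factor eIF2 and the ribosome, was at 416, 443 and 496 CPM in NC siRNA and at 276, 292 and 278 CPM in BNC2 siRNA. The NC siRNA libraries were spread more widely than the BNC2 siRNA libraries, and the groups did not overlap. The log2 fold change was -0.68 (SE 0.06, adjusted p = 7.3e-08). ABCE1, which splits ribosomes for recycling after termination, was at 158, 149.6 and 151 CPM in NC siRNA and at 188, 192 and 202 CPM in BNC2 siRNA. It rose without overlap (log2 fold change 0.34, SE 0.06, adjusted p = 3.6e-05). ABCF2 rose from 102 ± 1.59 to 122 ± 3.70 CPM (log2 fold change 0.26, SE 0.06, adjusted p = 0.00050) and ABCF3 from 42.9 ± 1.93 to 58.0 ± 1.63 CPM (log2 fold change 0.44, SE 0.07, adjusted p = 2.0e-05).

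Reads of subfamilies E and F made up 53.2% to 57.6% of all ABC gene reads in the NC siRNA libraries and 46.8% to 47.8% in the BNC2 siRNA libraries. The sum over all 46 members was nevertheless close in the groups, at 1344 to 1375 CPM in NC siRNA and 1368 to 1400 CPM in BNC2 siRNA. Without E and F it was 583 to 629 CPM in NC siRNA and 719 to 744 CPM in BNC2 siRNA. Within E and F only ABCF1 fell, while ABCE1, ABCF2 and ABCF3 rose.

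Subfamily G had 5 genes, of which 2 were tested, both near the minimum and both lower, where 36.2% of all genes tested were lower. Both passed the filter through the NC siRNA libraries alone, so this direction was fixed. ABCG2 (chromosome 4, 89011302 to 89152780, minus strand), which pumps drugs and urate out of cells, had 26, 31 and 29 counts in NC siRNA and 2, 2 and 0 counts in BNC2 siRNA. In CPM these are 1.46, 1.74 and 1.75 against 0.116, 0.113 and 0, so a low transcript in control cells was close to unseen after knockdown. The ratio of NC siRNA to BNC2 siRNA was 20.8 (exact 95% interval 7.85 to 78.2) and the fitted log2 fold change -4.26 (SE 0.50, adjusted p = 9.2e-07), whose size depends on the few reads of the lower group. ABCG4, a sterol exporter best known in the brain, had 25, 37 and 40 counts in NC siRNA and 3, 4 and 6 in BNC2 siRNA, or 1.41, 2.07 and 2.41 against 0.174, 0.226 and 0.382 CPM. Its groups were also far apart, with a ratio of 7.60 (exact 95% interval 4.25 to 14.8) and a log2 fold change of -2.89 (SE 0.39, adjusted p = 4.5e-06). ABCG1, which passes cholesterol to HDL, had 1 count in all, ABCG5 had 3 counts in 1 library, and ABCG8 had 1 count in all.

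In all 20 members were not tested, 5 of them with 0 counts throughout, 9 with at most 3 counts in any library and 6 with more. None reached 10 counts in a library, and the highest was the 8 counts of ABCC11. ABCA4, the retinal transporter of vitamin A derivatives, had 4, 4 and 5 counts in NC siRNA and 0 in each BNC2 siRNA library, at least 1.40-fold lower against 3 counts per library. ABCA12, the lipid carrier of the skin barrier, had 4, 1 and 5 counts in NC siRNA and 0 in BNC2 siRNA, and ABCA9 had 5, 2 and 5 against 1, 0 and 0. ABCA6, ABCA8 and ABCA13 had at most 2 counts in a library. When no filter on low counts was applied, ABCA4, ABCA9 and ABCA12 were called lower (adjusted p = 0.0043, 0.033 and 0.014) and ABCC6 higher (adjusted p = 0.045).

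Levels can be set against each other only per length, so CPM was divided by the length of each gene's canonical transcript in kilobases. On this scale ABCF1 was first in both groups (133 ± 12.0 in NC siRNA and 82.8 ± 2.65 in BNC2 siRNA), followed by ABCE1 (39.3 and 49.9), ABCF2 (22.5 and 27.0) and ABCF3 (17.5 and 23.7). In these ranks, the ribosome-associated members came before every membrane transporter. The next in NC siRNA were ABCD3 (12.8 ± 0.410), ABCC4 (11.9 ± 1.40) and ABCB6 (11.5 ± 0.422), whose means lie within the SD of ABCC4 of each other. Further down, the order differed between NC siRNA and BNC2 siRNA. ABCC3 went from rank 8 of 26 (9.48 ± 0.738) to rank 18 (2.68 ± 0.307), ABCA1 from rank 18 (3.31 ± 0.463) to rank 11 (9.76 ± 0.664), and ABCC1 from rank 9 (8.87 ± 0.587) to rank 5 (16.7 ± 1.11). ABCC3 and ABCC1 were neighbours in NC siRNA, with means closer than the SD of ABCC3, and well apart in BNC2 siRNA.

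**Figure D4:**
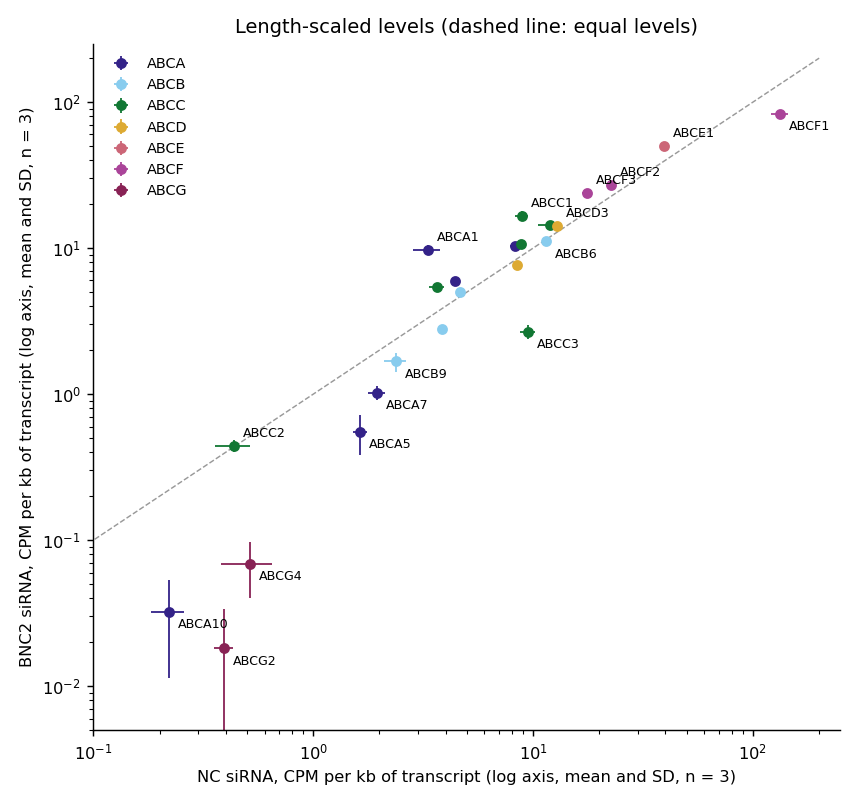
Mean CPM per kilobase of transcript in BNC2 siRNA (vertical log axis) against NC siRNA (horizontal log axis) for 24 of the 26 tested members, coloured by subfamily, with SD over 3 libraries as bars and a dashed line of equal levels. ABCF1 and ABCE1 lie at the upper right, ABCC3 below the line at 9.48 and 2.68, ABCA1 above it at 3.31 and 9.76, and ABCG2, ABCG4 and ABCA10 at the lower left.

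Genes that ABC transporters work with were counted from lists drawn up by function, with earlier results of these data known. The lists held 99 genes in all, of which 85 were tested, 23 rose, 42 fell and 20 were not called. These are 27.1% higher and 49.4% lower, where 36.6% of all genes tested were higher and 36.2% lower, and the 76.5% called lies near the 72.9% of all genes. ABC genes known by other symbols were TAP1 and TAP2, which load peptides for MHC class I, and the chloride channel CFTR. TAP2 fell (log2 fold change -0.32, SE 0.06, adjusted p = 0.000325), TAP1 was not called (0.12, adjusted p = 0.15), and CFTR had 1 count in all. The sterol list, which holds the regulators and partners of ABCA1 and ABCG1, had 7 of 15 tested genes higher and 6 lower (86.7% called). SREBF1 (log2 fold change 1.94), MYLIP (1.88), LPCAT3 (0.98) and NR1H2 (0.78) rose with ABCA1, of which NR1H2 encodes the receptor LXR beta and the others are known targets of LXR. APOE (-1.45), another LXR target and a cholesterol acceptor, fell, as did the lysosomal cholesterol genes LIPA (-0.73) and NPC2 (-0.62), while NPC1, the partner of NPC2, was not called (-0.01, adjusted p = 0.84). NR1H3, which encodes LXR alpha, was at about 1 CPM in both groups and was not called (-0.02, adjusted p = 0.94). Also lower in this list were NCOA1 (-0.79), SOAT1 (-0.47) and RXRA (-0.21). Also higher were SCARB1 (0.97), RXRB (0.82) and SREBF2 (0.70). A part of LXR in these changes was not tested.

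Around the mitochondrial members of subfamily B, 5 of 18 haem and iron-sulphur genes rose and 9 fell, 77.8% called against 72.9% of all genes tested. ALAS1, the first enzyme of haem synthesis, fell (log2 fold change -1.14), as did ISCU, the scaffold for iron-sulphur clusters (-0.96), the iron importer SLC25A28 (-0.82) and FECH (-0.51), while NFS1 (0.41), which supplies sulphur for the clusters, and TMEM14C (0.28) rose. Around subfamily D, 3 of 13 tested peroxisome genes rose and 6 fell, 69.2% called against 72.9% of all genes tested. The rises were PEX3 (0.48), PEX19 (0.38) and ELOVL1 (0.42), and the falls included the acyl-CoA synthetase ACSL1 (-0.97) and the carnitine transferase CROT (-1.17). SLC27A2, another acyl-CoA synthetase, is also among the falls (-1.53). It passed the filter through the NC siRNA libraries alone and so had to differ. Around E and F, 3 of 13 ribosome recycling and initiation genes rose, namely LTN1 (0.65), EIF2AK4 (0.64) and GCN1L1 (0.58). In that list, with 61.5% called, 5 fell, including EIF3J (-0.88) and EIF5B (-0.73). EIF3J acts with ABCE1 in recycling, and the 2 genes moved in opposite directions.

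Glutathione supplies the conjugates that ABCC1, ABCC2 and ABCC3 export. Of 13 tested genes for its synthesis, use and breakdown 9 fell and 2 rose, 84.6% called against 72.9% of all genes tested, and 69.2% lower against 36.2%. This list was chosen with earlier results of these data known, so its shares are a description and were not tested. The largest fall was that of CHAC1 (log2 fold change -1.70, adjusted p = 3.9e-07), which breaks glutathione down. The other falls included both subunits of the rate-limiting ligase, GCLC (log2 fold change -1.19) and GCLM (-0.79), the reductase GSR (-1.0), and the transferases GSTO1 (-1.38) and GSTP1 (-0.67), and the rises were GSTZ1 (1.53) and GSTA4 (0.86). Among 11 tested regulators of transporter genes 3 rose and 6 fell (81.8% called). NFE2L2, which encodes the oxidative stress factor NRF2, fell by 1.75 on the log2 scale (SE 0.06, adjusted p = 5.2e-13), and PPARA rose by 1.91 (SE 0.09, adjusted p = 1.0e-11).

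**Figure D5:**
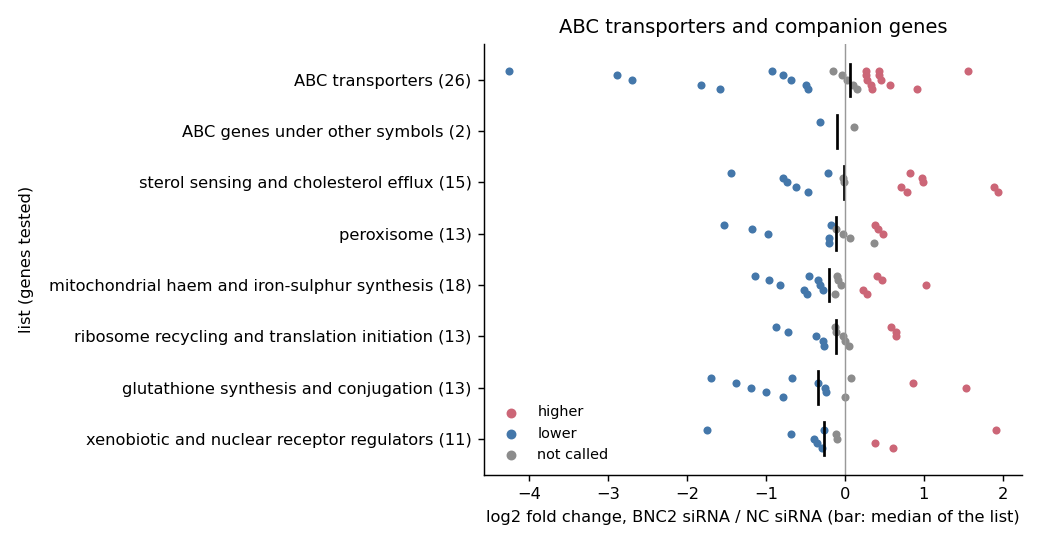
Log2 fold change of each tested gene (points) in the ABC transporters and in the lists of genes they work with, with a bar at the median of each list. The ABC transporters have a median of 0.06 with calls on both sides, and the glutathione list has 9 of its 13 genes lower. The lists were chosen with earlier results of these data known.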

How the data were processed

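Single-end reads of poly(A) RNA were aligned to hg19 by the authors with STAR 2.6.1d, and the read counts per gene were deposited without normalisation. The deposited table equals STAR's reverse-strand counts of uniquely mapped reads in all 23346 genes, so reads shared by near-identical copies are missing. Reads assigned to no gene (37.7% to 41.1% of a library) were left out.

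The members and lists were chosen with earlier results of these data known. Genes above 1 CPM in 3 or more of 6 libraries were kept, scaled by TMM (factors 0.972 to 1.04) and tested with edgeR 4.0.16 (glmQLFTest, no replicate block) in R 4.3.3 with limma 3.58.1. The code was first run on simulated counts. Far fewer genes were changed there than were called here, so that run gives no error rate for these data. SE is the log2 fold change divided by the square root of F. Every member was placed in its subfamily, and a few genes are left without values here. Values in each library were given for members called with an absolute log2 fold change of at least 1 and for tested members not called. Also included were each subfamily's highest tested member per kilobase in NC siRNA, and any untested member reaching 10 counts (there was none). ABCC1, which falls outside this rule, and low-count members were added after their values were seen. Ratios of counts have exact (Clopper-Pearson) 95% intervals from scipy 1.17.1, which cover counting error only and not the spread between libraries. Positions and transcript lengths come from GENCODE 44 on GRCh37, and promoters from RefSeq. Alternatives were edgeR's likelihood ratio test, DESeq2 1.42.0, its size factors, a replicate block, total counts, both strands counted together, filterByExpr, no filter, and leaving out each library.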

Additional observations from a re-analysis of the deposited data

How the results depend on the processing

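Counts of ABC transporter genes kept to within 1.5 times under the alternatives run. Members higher numbered 11 to 13, and members lower 10 to 13 without a library left out. Leaving out single libraries gave 11 to 12 higher and 7 to 10 lower. The 7 came from leaving out any NC siRNA library, when ABCA10, ABCG2 and ABCG4 no longer met the filter of 3 libraries and were not tested. With a replicate block, 11 members rose and 10 fell, companion genes numbered 23 higher and 39 lower, and 8400 of all 12186 genes were called, against 8879 without it. Same-numbered libraries did not deviate together (correlations -0.29, -0.10 and -0.17, where all pairs across the groups ranged from -0.29 to 0.25). Deviations from means of 3 libraries are tied to each other, so this check cannot settle whether the numbers pair the samples.

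Of the results for tested members under alternatives, 346 kept their direction and call, 5 gained a call and 4 changed sign, the latter in ABCB6 and ABCC2, which were not called in any setting. ABCB6 ranged from -0.083 to 0.000286 when single libraries were left out, the latter without BNC2 siRNA replicate 1. ABCC2 was at -0.054 with total counts only, and at -0.14 to 0.10 when single libraries were left out. ABCD3 was called with no filter (0.18), filterByExpr (0.16), counts of both strands (0.16) and without BNC2 siRNA replicate 1 (0.19), and ABCD4 with total counts only (-0.22). NR1H3 changed sign with no filter (0.0037) and ranged from -0.22 to 0.10 when single libraries were left out. NPC1, also not called, changed sign with no filter (0.0149) and ranged from -0.0635 to 0.0163 when single libraries were left out. Counts under 10 per library limit what can be said of 20 members.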

Other observations

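Genes named as ABC pseudogenes by a final P or P and a number fall outside the symbols followed above. ABCA11P had 37, 58 and 36 counts in NC siRNA and 55, 72 and 60 in BNC2 siRNA, and was called higher (edgeR's quasi-likelihood test, log2 fold change 0.56, SE 0.21, adjusted p = 0.024), although the groups overlapped in counts. ABCA17P had 3, 2 and 1 counts in NC siRNA and 0 in each BNC2 siRNA library, and ABCC6P1 had at most 1 count in a library.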
